A study of Rattus norvegicus with 12 samples.

Results

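The data describe 3 small regulatory RNAs, miR-375, miR-7a and miR-7b, in sorted cells and tissue of the rat medial entorhinal cortex (MEC). The assays were found by name on a quantitative PCR card for microRNAs (miRNAs), and all 3 were present, each in a single one of its 384 wells, of which 4 held U6, 4 other reference RNAs and 1 a plant control. A threshold cycle (Ct) was determined for all 3 in each of the 12 samples. The card was run on 5 samples of stellate cells, 5 samples of non-stellate cells and 2 samples of MEC tissue. The sorted cells came from Long Evans rat pups that received the retrograde dye DiO in the dentate gyrus on postnatal day 2 (P2) and were killed on P4 or P5. Stellate cells were the DiO positive cells and non-stellate cells the DiO negative cells of the same dissociated MEC, so both groups carried the injection. The sort selected live cells by DiO, with no molecular marker of stellate cells, and the non-stellate group could hold any other cell of the cortex, including stellate cells that took up no dye. The tissue came from rats aged P23, was kept in RNAlater without dissociation or sorting, and its RNA was extracted with another kit. A description label names non-stellate samples 3 and 5 as labeled, against their title, source and fluorescence. They were kept as non-stellate, and the differences of the 3 members are also given without them.

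miRNAs are short RNAs that guide Argonaute proteins to messenger RNAs, mainly by pairing of the seed near their 5′ end, and lower the output of the bound messages. miR-375 is best known from endocrine cells of the pancreatic islet and the pituitary, where it restrains insulin secretion. miR-7 is conserved far beyond mammals, is abundant in islet, pituitary and hypothalamic cells, and is known in neurons for its many binding sites on the circular RNA Cdr1as, which miR-671 can cleave.

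The mature sequences are shown because the shared seed, and the single base that separates miR-7a from miR-7b, decide how the 3 assays can be read. Sequences are from RefSeq on the rat build GRCr8, matched by name since the card's names carry no arm, and capitals mark the seed, bases 2 to 8 from the 5′ end.
miR-375: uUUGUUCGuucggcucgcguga
miR-7a: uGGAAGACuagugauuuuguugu
miR-7b: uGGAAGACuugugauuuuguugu

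miR-7a and miR-7b had the same seed and the same length of 23 bases, and differed by the substitution A10U, counted from the 5′ end with the base of miR-7a first. Of 692 distinct mature rat sequences in the RefSeq table, these 2 alone held the miR-7 seed. The seed of miR-375 was found in miR-375 alone. The content of G and C was 54.5% in miR-375 (22 bases) and 34.8% in both miR-7 sequences. Whether the miR-7a and miR-7b assays tell these near-identical targets apart was not tested.

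miR-375 lies at chr9:83906591-83906612 on the minus strand, within the spans of the protein-coding genes LOC134480387 and Cryba2, which encodes a lens crystallin. The mature miR-7a sequence is encoded at 2 loci. The first copy lies at chr17:6278710-6278732 on the plus strand, within Hnrnpk, which encodes an RNA-binding protein. The other copy lies at chr1:142215818-142215840 on the plus strand, within the long non-coding RNA LOC120099863. The assay cannot tell the copies apart. miR-7b lies at chr9:1167464-1167486 on the plus strand, within the span of the pseudogene Rpl35l3. The gene table used here gives spans without exons, so exonic or intronic position is not stated.

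The Ct is on the log2 scale and falls as abundance rises. A level over U6 is the mean Ct of the 4 wells of U6, a small nuclear RNA, minus the Ct of the assay, so that 1 unit equals 1 cycle and higher means more. A level over the median assay is the same with the median Ct of the 176 miRNA assays that were determined in all 10 sorted samples in place of U6. Across the samples, 203 to 260 miRNA assays were determined in sorted cells, and 292 and 302 in tissue. Mean U6 Ct ranged from 16.5 to 20.2 in sorted cells and was 16.0 and 15.6 in tissue. The median assay came up 9.89 to 12.33 cycles after U6 in sorted cells and 7.74 and 8.10 cycles after it in tissue, so the typical miRNA was more abundant relative to U6 in tissue. The neuronal miRNAs miR-124, miR-128a, miR-138, miR-129-3p and miR-9 were determined in all 12 samples. The pooled standard deviation (SD) of the U6 wells within a sample was 0.366 cycles, which gives 0.518 cycles for a difference between single wells. The members came up later than U6, and the precision of their own wells was not measured. Replicates are described as biological by the study's design text, and p-values measure the spread between these samples.

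miR-375 varied more among sorted samples than miR-7, most clearly among stellate samples. Its raw Ct in stellate samples 1 to 5 was 27.30, 26.98, 30.09, 25.86 and 30.44. In non-stellate samples 1 to 5 it was 29.95, 30.85, 32.96, 29.09 and 33.15, and in tissue 29.37 and 27.76. Over U6, the level of miR-375 in stellate samples was -10.47, -8.82, -11.06, -7.98 and -13.94 log2 units, with a mean of -10.45 ± 2.31 (SD, n = 5). In non-stellate samples it was -11.87, -13.11, -15.03, -10.60 and -12.91, with a mean of -12.71 ± 1.64 (SD, n = 5). Stellate samples 1, 2 and 4 lay above all non-stellate samples, whereas stellate sample 5 lay below 4 of the 5, so the groups overlapped. Tissue, at -13.41 and -12.16, lay within the range of the sorted samples on this scale.

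miR-7a had close group means in the sorted cells and a wide spread among samples. Over U6 it measured -12.07, -9.22, -10.86, -10.72 and -10.96 in stellate samples, with a mean of -10.76 ± 1.02 (SD, n = 5). In non-stellate samples it measured -10.59, -11.09, -12.92, -9.75 and -10.77, with a mean of -11.02 ± 1.17 (SD, n = 5). Non-stellate sample 3 was the lowest of the sorted samples and stellate sample 2 the highest, and the groups overlapped. Both tissue samples, at -7.50 and -7.85, lay above all 10, which was true of 68.6% of the 220 assays tested in tissue.

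miR-7b, the assay for the sequence with the other base at position 10, had an SD of 0.75 among stellate and 1.30 among non-stellate samples. Its level over U6 in stellate samples was -11.25, -9.30, -10.84, -10.68 and -10.79, with a mean of -10.57 ± 0.75 (SD, n = 5). In non-stellate samples it was -11.23, -11.35, -13.66, -10.20 and -10.93, with a mean of -11.48 ± 1.30 (SD, n = 5). Non-stellate sample 3 held the lowest value and stellate sample 2 the highest among sorted cells, and the groups overlapped. Tissue measured -8.01 and -7.89, again above all sorted samples.

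The ranks within each card need no reference. They again had a wider range for miR-375 among sorted samples, but placed tissue otherwise than the levels over U6. With the earliest Ct of all miRNA assays ranked first, miR-375 ranked 45 to 164 in stellate samples, 94 to 162 in non-stellate samples, and 226 and 205 in tissue. miR-7a ranked 79 to 104 in stellate samples, 74 to 104 in non-stellate samples, and 83 and 85 in tissue. miR-7b ranked 75 to 100, 87 to 125, and 94 and 87 in the same order. The rank of miR-7 was thus alike in the 3 groups, and that of miR-375 was later in tissue than in any sorted sample. Ranks set assays side by side whose efficiencies may differ, and are read here only between samples.

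**Figure D1:**
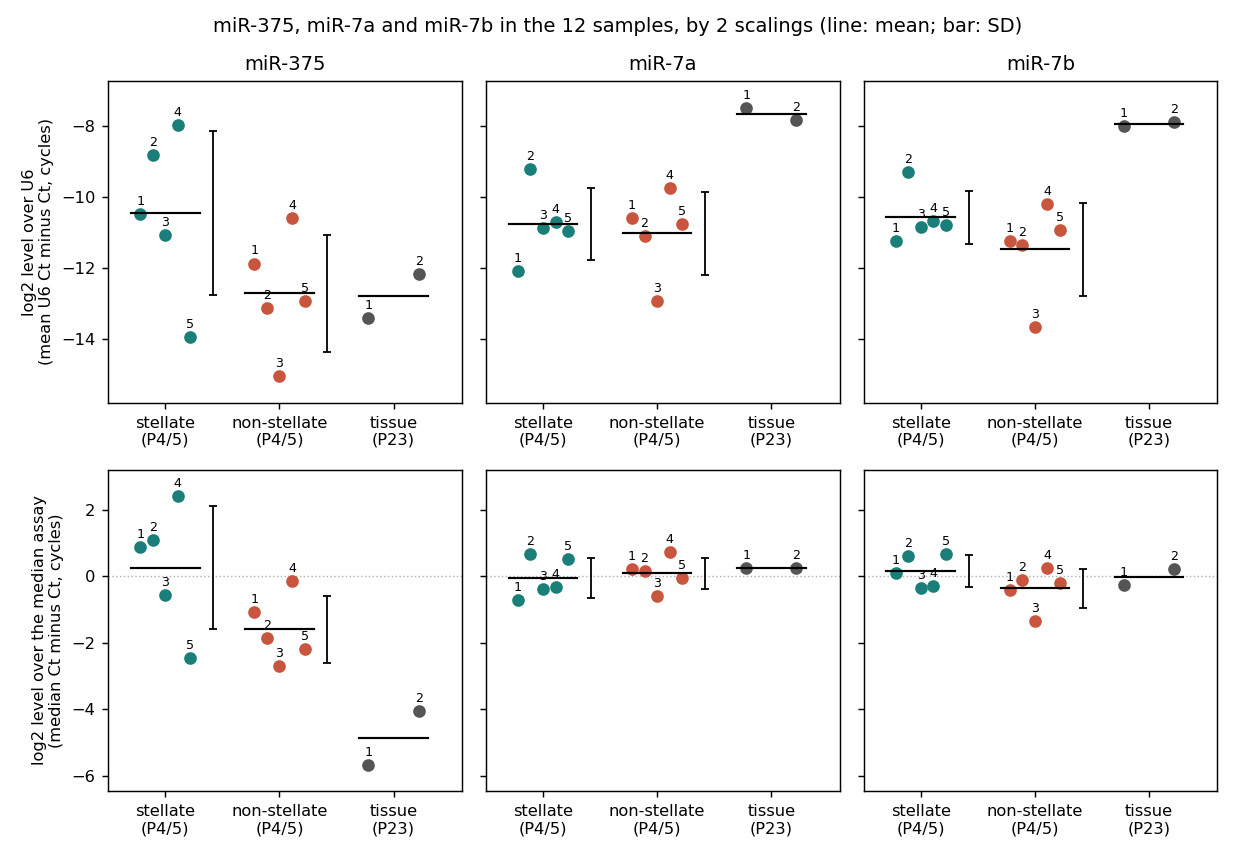
Log2 level of miR-375, miR-7a and miR-7b over U6 (upper row) and over the median assay (lower row), in cycles, for stellate, non-stellate and tissue samples. Points are samples with their replicate numbers, lines are group means and bars are SD (n = 5, none drawn for the 2 tissue samples). Over U6 miR-375 runs from -13.94 to -7.98 in stellate samples, and the tissue samples lie within the sorted range for miR-375 in the upper row and below it in the lower row, while those of miR-7a and miR-7b lie above it in the upper row and within it in the lower.

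The first comparison asked which miRNAs differ between stellate cells and the other cells of the MEC. No member passed the test. miR-375 was 2.25 ± 1.12 (standard error, SE) log2 units higher in stellate cells over U6, with a 95% interval of -0.19 to 4.69 (limma, Benjamini-Hochberg adjusted p = 0.587 over 222 assays). The exact permutation test over all 252 assignments of the 10 samples gave p = 0.127. The difference was 0.26 ± 0.69 for miR-7a (limma adjusted p = 0.935, interval -1.26 to 1.78) and 0.90 ± 0.68 for miR-7b (limma adjusted p = 0.710, interval -0.58 to 2.39). These intervals leave room for changes of over 1 log2 unit in miR-7. In the whole comparison 0 of 222 assays (0%) passed in either direction, and 16 (7.21%) had an unadjusted limma p below 0.05, miR-375 not among them. The median difference of all 222 assays was 0.46, and miR-375 had the 14th highest difference. In such sorted bulk samples, more cells of a type and more RNA per cell cannot be told apart.

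The differences were smaller over the median assay, and the groups again overlapped for all 3 members (4.05% of all 222 assays did not overlap on this scale, and 0% over U6). miR-375 was higher in stellate cells by 1.86 (limma adjusted p = 0.350, exact permutation p = 0.103), miR-7a by -0.14 (limma adjusted p = 0.872) and miR-7b by 0.51 (limma adjusted p = 0.484), against a median of 0.07 over all assays. No assay passed on this scale either (0%), and 28 (12.6%) had an unadjusted p below 0.05. The direction of miR-7a therefore depended on the reference. miR-375 and miR-7b were higher in stellate cells by all 7 references tried, though not beyond the threshold. A change of reference moves the difference of every assay by the same amount, so the 7 are not separate checks. The differences were lowest over the median assay, where 117 of all 222 assays were higher in stellate cells. With the single reference RNAs snoRNA135 and snoRNA202, the exact permutation test for miR-375 gave p = 0.0476 for a difference of 2.35 and p = 0.0397 for 3.04. These p-values were not adjusted, and the other references gave exact permutation p from 0.0556 to 0.127. The median difference of all 222 assays was 0.56 by snoRNA135 and 1.25 by snoRNA202, and limma passed no assay with either.

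Stellate and non-stellate samples of the same number came from the same biological replicate, which allows the difference to be read within pairs. miR-375 was higher in the stellate sample of pairs 1 to 4, by 1.40, 4.29, 3.97 and 2.62 log2 units over U6, and lower in pair 5, by -1.02. The same pairs gave, over the median assay, 1.95, 2.94, 2.12, 2.54 and -0.27, a narrower spread among the first 4. Higher in at least 4 of 5 pairs was also true of 32.9% of all 222 assays over U6 and of 27.5% over the median assay. miR-7a gave -1.49, 1.87, 2.06, -0.97 and -0.19 over U6, and miR-7b -0.02, 2.06, 2.82, -0.47 and 0.14. The median difference of the common assays was -0.49, 1.28, 1.76, -0.02 and -0.73 in pairs 1 to 5, of the same sign as that of miR-7a in all 5 pairs and as that of miR-7b in 4.

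**Figure D2:**
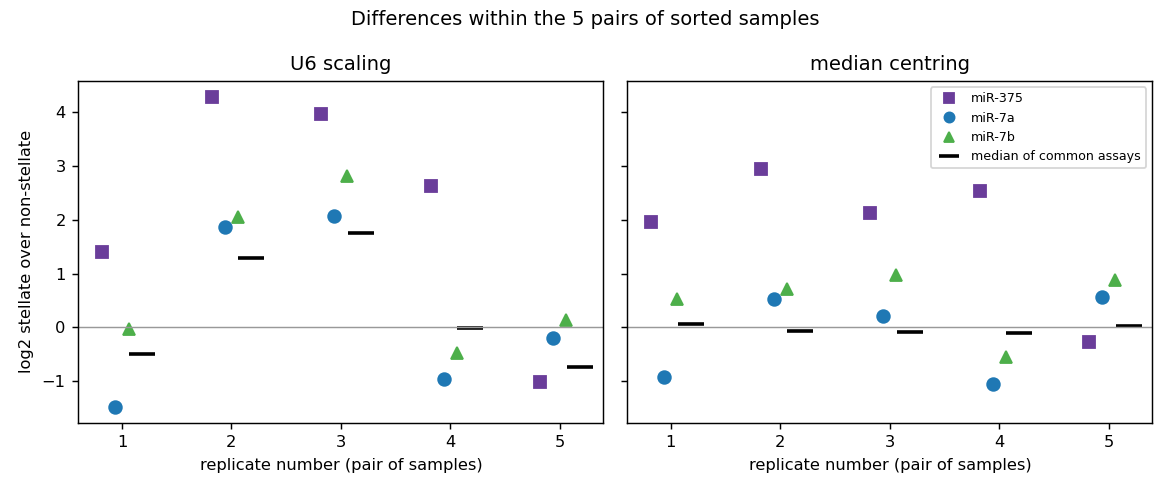
Log2 difference between the stellate and the non-stellate sample of each replicate number for miR-375, miR-7a, miR-7b and the median of the assays common to the sorted samples, over U6 (left) and over the median assay (right). miR-375 lies above 0 in pairs 1 to 4 and below it in pair 5 on both scales, and miR-7a and miR-7b lie between -1.05 and 0.98 on the right.

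The size of the miR-375 difference depended on single samples. Without stellate sample 5, miR-375 was 3.12 higher over U6 (limma adjusted p = 0.408) and 2.54 higher over the median assay (limma adjusted p = 0.121). The difference over U6 was 1.63 without stellate sample 4 (limma adjusted p = 0.884) and 1.67 without non-stellate sample 3 (limma adjusted p = 0.793). Without non-stellate samples 3 and 5, whose description label disagrees with their group, the difference was 1.41 over U6 (limma adjusted p = 0.980) and 1.29 over the median assay (limma adjusted p = 0.762). For miR-7a and miR-7b, leaving out those samples gave -0.29 and 0.36 over U6, and -0.41 and 0.24 over the median assay. Among the other assays, miR-155 stood apart in the same samples, with a raw Ct of 11.3 and 11.7 against 32.1 to 35.5 in the other sorted samples.

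The profile of miR-375 over the sorted samples was closest to those of miR-449a, miR-34b-3p and miR-150. Closeness was taken as the mean absolute difference, over the 10 sorted samples, between levels over the median assay after each assay's own mean was removed. It was 0.684 cycles for miR-449a, 0.810 for miR-34b-3p and 0.845 for miR-150, against a median of 1.503 over all 175 other assays. miR-449a and miR-34b-3p belong to the miR-34 and miR-449 family, which is known for its abundance in ciliated cells, and miR-150 is best known from lymphocytes.

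miR-449a was picked as the assay closest to miR-375 over the sorted samples, so their agreement there follows from that choice. Its level over the median assay was 3.84, 2.09, 0.33, 2.96 and -1.33 in stellate samples 1 to 5, where miR-375 measured 0.88, 1.07, -0.58, 2.40 and -2.47. In non-stellate samples 1 to 5 it measured 0.85, -0.16, -1.13, 0.60 and -2.87, where miR-375 measured -1.08, -1.87, -2.70, -0.14 and -2.21. Both assays were low in stellate sample 5 and high in stellate samples 1, 2 and 4. In tissue miR-449a measured -8.07 and -5.73 and miR-375 -5.67 and -4.07. Both assays were higher in tissue sample 2. Both also lay below all 10 sorted samples in tissue, as did 25.9% of the 220 assays tested there on this scale. miR-150 was highest in stellate samples 1 and 4, at 5.09 and 5.10, but measured 3.27 and 3.36 in tissue, within its range in stellate cells. miR-34b-3p was highest in stellate sample 4, at 0.92, and lowest among sorted samples in stellate sample 5, at -2.95. These assays shared the same libraries, and the likeness is a description over 10 samples.

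**Figure D3:**
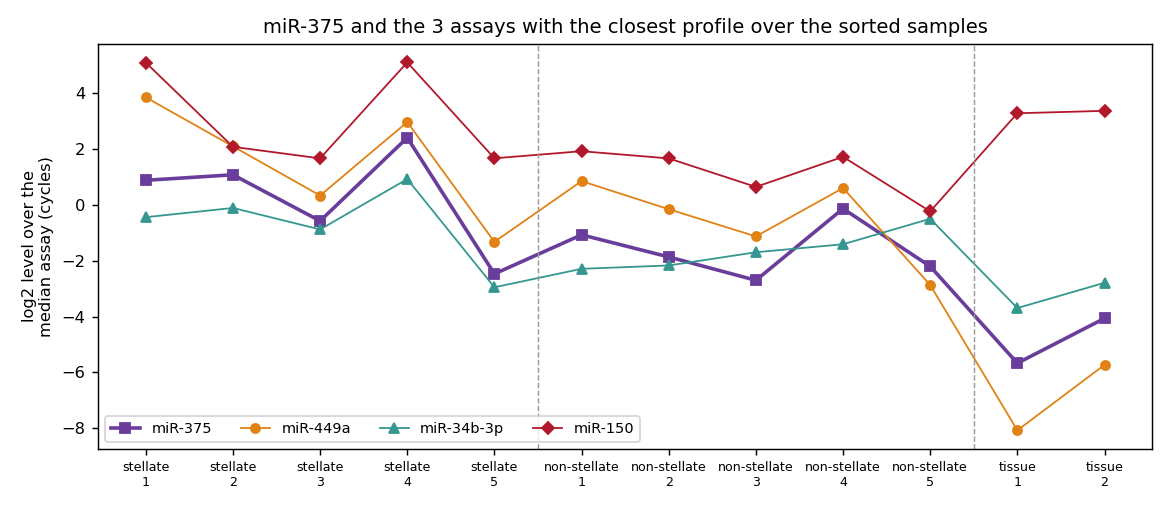
Log2 level over the median assay, in cycles, of miR-375 and the 3 assays with the closest profile over the sorted samples, in each of the 12 samples. miR-375 and miR-449a peak in stellate samples 1, 2 and 4, are low in stellate sample 5, and are lowest in the tissue samples, whereas miR-150 is at 3.27 and 3.36 there.

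Marker lists of neurons and of other cell types were summed in each sample beside miR-375. Over the median assay the 5 neuronal miRNAs summed to 7.57 to 8.74 in stellate samples, 8.12 to 9.02 in non-stellate samples and 8.59 to 8.65 in tissue. In the stellate comparison 4 of the 5 were positive, with a median of 0.97 over U6, and none passed. Of 8 miRNAs listed for choroid plexus and ependyma, 6 were on the card, and 4 or 5 of them were determined in each sample. Their summed log2 level over the median assay was 2.16 to 4.24 in stellate samples, 1.88 to 2.51 in non-stellate samples, and 2.39 and 2.81 in tissue. All 4 tested members of the list were positive in the stellate comparison, with a median of 1.45 over U6 against 0.46 for all assays, and none passed. Of all 222 assays, 163 were positive over U6 and 117 over the median assay. Without miR-449a, the assay closest to miR-375, the list summed to 2.03 to 2.91 in stellate samples, 1.59 to 2.22 in non-stellate samples, and 2.39 and 2.81 in tissue. miR-204 of this list, abundant in choroid plexus, lay between 1.76 and 1.92 in stellate samples and differed by 0.24 from non-stellate cells over the median assay. miR-449b was undetermined in all samples but stellate sample 4, and miR-211 was undetermined in 7 of the 10 sorted samples. The 4 vascular miRNAs summed to 1.25 to 4.42 in stellate samples, 1.17 to 2.74 in non-stellate samples and 4.58 to 4.75 in tissue. All 4 were positive in the stellate comparison, with a median of 1.42 over U6 against 0.46 for all assays, and none passed. The blood and microglia list without miR-155 summed to 1.74 to 5.10, 0.27 to 2.02 and 3.42 to 3.50, led by miR-150, while its members miR-142-5p and miR-451 were undetermined in all 10 sorted samples and determined in both tissue samples. With miR-155, 4 members of this list were tested in the stellate comparison. Of these, 2 were positive over U6 and 1 over the median assay, and none passed. Over the median assay miR-150 differed by 1.98, miR-223 by -0.17 and miR-142-3p by -1.17. The 5 miRNAs of the miR-200 family, listed for endocrine and epithelial cells, were determined for 1 to 3 members per sorted sample and summed to -4.42 to -0.43 in stellate and -2.68 to 0.41 in non-stellate samples. The tissue samples differed, with 2 members determined and a sum of -4.39 in sample 1, and 5 and -0.14 in sample 2. There miR-200a was undetermined in tissue sample 1 and had a Ct of 23.9 in tissue sample 2. The 2 oligodendrocyte miRNAs were determined for 0 or 1 member per sorted sample. The part of these cells in the miR-375 values was not tested.

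The closest profiles to miR-7a and miR-7b were those of other assays. For miR-7a they were rno-miR-532-5p (0.279 cycles), miR-26a (0.294) and miR-379 (0.302), against a median of 0.621. For miR-7b they were miR-135b (0.239), rno-miR-532-5p (0.251) and miR-124, the most neuron-specific miRNA known (0.279), against a median of 0.637. In the stellate comparison over the median assay these neighbours differed by -0.29 to 0.57 log2 units.

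The ratio between assays of the same sample needs no reference. Its difference between groups assumes that both assays amplify with equal efficiency, which was not tested, since mean raw Ct also differed between stellate and non-stellate samples, at 28.44 and 29.52 for miR-7a and 28.25 and 29.97 for miR-7b. miR-7a over miR-7b was -0.83, 0.08, -0.02, -0.04 and -0.16 log2 units in stellate samples 1 to 5, with a mean of -0.19 ± 0.36 (SD, n = 5). In non-stellate samples it was 0.64, 0.26, 0.74, 0.46 and 0.17, with a mean of 0.45 ± 0.24 (SD, n = 5). The groups did not overlap, and the stellate sample was lower in each of the 5 pairs, by -0.18 to -1.46. The difference of -0.65 ± 0.20 (SE) had an exact permutation p = 0.00794, the smallest that 5 against 5 samples allow, and an adjusted p of 0.0238 over the 3 ratios compared. Tissue sample 1, at 0.51, lay within the non-stellate range, and tissue sample 2, at 0.04, within the stellate range.

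Several limits apply to this ratio. The highest stellate value, 0.078, and the lowest non-stellate value, 0.165, lay closer together than the 0.518 cycles given for single U6 wells. Of all 15400 pairs of assays determined in the 10 sorted samples, 608 (3.95%) also had groups that did not overlap. With the replicate number as a block, the exact sign-flip test of the 5 pairs gave p = 0.0625, the smallest it allows, and an adjusted p of 0.188. Without non-stellate samples 3 and 5 the difference was -0.64 and the groups stayed apart, with an exact permutation p = 0.0179, the smallest 5 against 3 samples allow, and an adjusted p of 0.0536.

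miR-375 over miR-7a was 1.60, 0.40, -0.20, 2.74 and -2.98 in stellate samples and -1.28, -2.02, -2.11, -0.85 and -2.15 in non-stellate samples. Stellate samples 1 to 4 lay above all non-stellate samples and stellate sample 5 below them. The difference of 1.99 ± 1.00 (SE) did not pass (exact permutation p = 0.0873, adjusted over 3 ratios p = 0.131). Without stellate sample 5, the only one below the non-stellate samples, it was 2.82. The groups then did not overlap, which was also true of 9.9% of all 15400 assay pairs without that sample. miR-375 over miR-7b differed by 1.35 ± 1.00 (SE, exact permutation p = 0.230), and by 2.16 without stellate sample 5. In tissue miR-375 over miR-7a was -5.92 and -4.31, below all 10 sorted samples, of which the lowest was -2.98. The ratio to miR-7b, at -5.41 and -4.27, was likewise below all 10. Among the 15400 pairs of assays determined in all 12 samples, 56.9% had tissue and sorted samples that did not overlap.

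**Figure D4:**
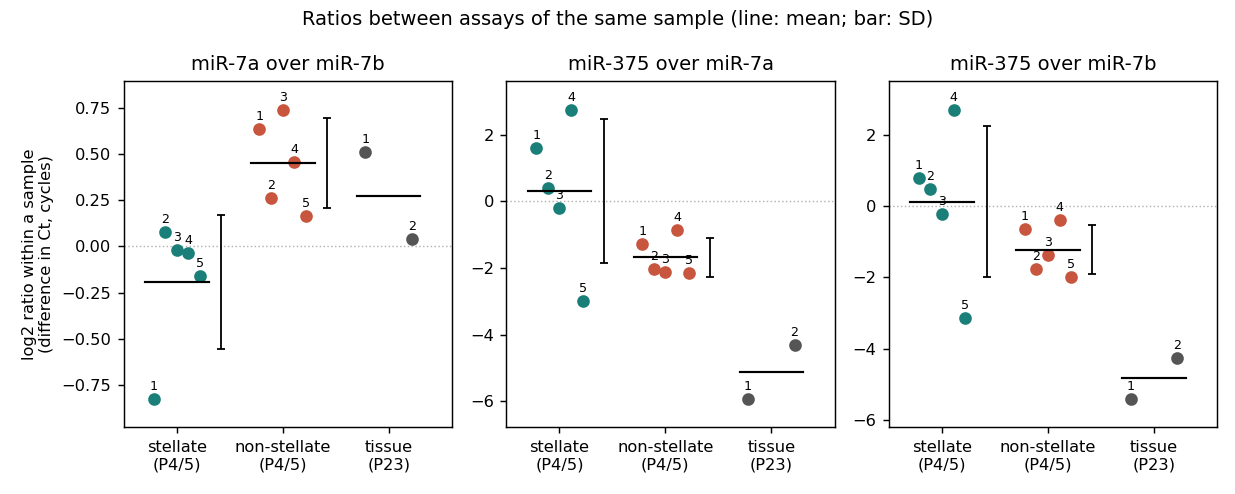
Log2 ratio within each sample, in cycles, of miR-7a over miR-7b, miR-375 over miR-7a and miR-375 over miR-7b, by group. Points are samples with their replicate numbers, lines are means and bars are SD (n = 5). The miR-7a over miR-7b ratio is below 0.08 in stellate and above 0.16 in non-stellate samples, and both ratios of miR-375 are lowest in tissue.

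The 2 tissue samples were run by the study to compare technologies, and set against the sorted cells they differ in age, dissociation, sorting and RNA extraction, which cannot be told apart. Over U6, miR-7a was 3.22 ± 0.80 (SE) log2 units higher in tissue than in the mean of the sorted groups (limma adjusted p = 0.00350 over 220 assays) and miR-7b 3.07 ± 0.78 (limma adjusted p = 0.00394). These differences were those of the typical assay. The median over all 220 assays was 3.04, 139 assays (63.2%) were higher at the same threshold and 2 (0.909%) lower, and 68.6% had both tissue samples above all 10 sorted samples. miR-7a differed over the median assay by 0.23 ± 0.41 (limma adjusted p = 0.664) and miR-7b by 0.08 ± 0.42 (limma adjusted p = 0.889). By Y1, a small RNA of the Ro particle, both were lower in tissue, by -0.28 and -0.43.

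miR-375 measured lower in tissue by every reference. Over U6 it was lower in tissue by -1.21 ± 1.31 (SE, limma adjusted p = 0.446, exact permutation p = 0.500), which did not pass, and its difference was the 8th lowest of 220. Over the median assay it was lower by -4.20 ± 1.05 (SE, limma adjusted p = 0.00670), with both tissue samples below all 10 sorted samples (exact permutation p = 0.0152, the smallest 2 against 10 samples allow). On this scale 55 assays (25%) were lower and 53 (24.1%) higher at the same threshold, and 25.9% had both tissue samples below all sorted samples, so a fall past the threshold was common on this scale. miR-449a had the lowest difference of all 220 assays, at -7.42 (limma adjusted p = 0.000700). miR-375 passed with the median assay, the mean of the common assays (-3.88, limma adjusted p = 0.00985) and Y1 (-4.71, limma adjusted p = 0.0151), and did not with U6, snoRNA135, snoRNA202 or U87.

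Against each sorted group, miR-375 over the median assay was lower in tissue by -5.13 than in stellate cells (limma adjusted p = 0.00366) and by -3.27 than in non-stellate cells (limma adjusted p = 0.0337). Over U6 the values were -2.33 (limma adjusted p = 0.175) and -0.08 (limma adjusted p = 0.959). miR-7a was higher over U6 by 3.09 and 3.35 and miR-7b by 2.62 and 3.53, and over the median assay all 4 values lay between -0.17 and 0.34. Over U6, 56.8% of the 220 assays were higher in tissue than in stellate cells and 0.455% lower, and 63.2% and 0.909% than in non-stellate cells. The corresponding shares over the median assay were 18.2% and 23.2%, and 25.5% and 25.5%. Both comparisons used the same tissue samples. Without non-stellate samples 3 and 5, tissue differed from sorted cells by -1.63, 2.95 and 2.80 over U6 in miR-375, miR-7a and miR-7b, and by -4.48, 0.09 and -0.05 over the median assay, and miR-375 passed on the second scale alone (limma adjusted p = 0.0106).

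The 2 tissue samples differed in miR-375 more than in most assays. The U6-scaled Ct of miR-375 was 1.25 cycles higher, and so its level lower, in tissue sample 1 than in sample 2, the 5th largest difference of the 230 assays with a Ct below 30 in both, where the SD of the differences was 0.389. The same difference was 1.99 for miR-449a, with a Ct of 31.8 and 29.4, -0.35 for miR-7a and 0.12 for miR-7b. The median difference of the 230 assays was -0.38, so that of miR-7a was close to the typical assay.

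**Figure D5:**
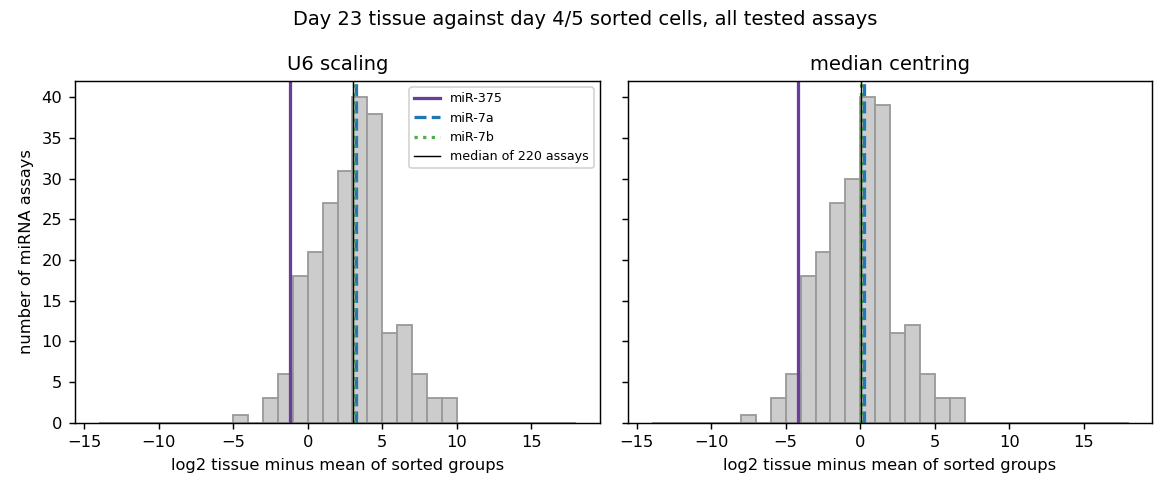
Distribution of the log2 difference between tissue and the mean of the sorted groups over 220 tested assays (bars, number of assays in bins of 1 log2 unit), over U6 (left) and over the median assay (right). Vertical lines mark miR-375, miR-7a, miR-7b and the median of all assays. miR-7a and miR-7b lie at the median of the distribution and miR-375 in its lower tail on both scales.

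Other miRNAs known from islets and neuroendocrine cells were taken as a list of 16, all on the card. It shares miR-9 and miR-124 with the neuronal list, miR-204 with the choroid plexus list and the 5 miR-200 family members with the epithelial list. In stellate against non-stellate cells 8 could be tested, and 0 were higher and 0 lower at the limma threshold, with a median of 0.74 over U6 against 0.46 for all assays and of 0.35 against 0.07 over the median assay. The smallest p-values belonged to miR-127, an imprinted miRNA (1.06, limma adjusted p = 0.611), miR-124 (0.97, limma adjusted p = 0.629) and miR-184 (2.20, limma adjusted p = 0.682). Of these, miR-184 was undetermined in non-stellate samples 3 and 4, which entered the fit at a Ct of 40. In the other 8 sorted samples its Ct was late, from 31.99 to 35.73. miR-671-3p, from the hairpin whose other arm acts on Cdr1as, measured 0.85 (limma adjusted p = 0.710). Of the 8, 2 over the median assay had an unadjusted p below 0.05, miR-9 at -0.80 and miR-127 at 0.66, against 12.6% of all 222 assays. Of the members that were not tested, miR-182, miR-200c and miR-429 were determined in 5 of the 10 sorted samples, miR-183 in 3, miR-141 and miR-200b in 2 and miR-153 in 1, and miR-96 was undetermined in all 12 samples.

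In tissue against sorted cells 7 of the 16 could be tested and 6 were higher over U6, where 63.2% of all 220 assays were, with a median of 3.40 against 3.04 for all assays. With median centring 3 were higher and 0 lower, against 24.1% and 25% of all assays, with a median of 0.41 against 0.05. These were miR-335-5p (3.33, limma adjusted p = 1.05e-05), miR-124 (1.27, limma adjusted p = 0.00986) and miR-204 (0.77, limma adjusted p = 0.0215). miR-671-3p was 2.05 higher over U6 (limma adjusted p = 0.0287), below the typical assay, and -0.93 over the median assay (limma adjusted p = 0.0599). All 7 measured higher in tissue over U6, and 5 of the 7 over the median assay. Of all 220 assays, 192 measured higher in tissue over U6 and 114 over the median assay.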

How the data were processed

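Per the labels and the study's methods, RNA was reverse transcribed with Megaplex primers, pre-amplified and run on TaqMan rodent card A, read with ViiA7 Software 1.2. The Ct values deposited by the authors are on the log2 scale, with 40 for undetermined wells. The log2 table normalized by the authors equals Ct minus the mean of the 4 U6 wells (largest difference 7.1e-15). No counts exist, so determined wells and U6 stand in for depth. The authors' deposited tables of fold change, p-value and moderated t score hold their own comparison and were not used.

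Members, marker lists and tests were chosen with earlier results of these data known. Named list genes were miR-671 and the 3 smallest p per comparison, and the 3 nearest profiles per member. Levels were compared with limma 3.58.1 in R 4.3.3 (lmFit, eBayes, two-sided, Benjamini-Hochberg, threshold 0.05), without a block because the methods state none, on assays undetermined in at most 3 samples of the fit (10 sorted samples, or all 12 for tissue). The scripts were tested on simulated data. Python 3.11.15 ran two-sided exact permutation tests. Numbers pair samples of 1 biological replicate, per the design text; deviations from group means correlated at 0.331, 0.119, 0.256, 0.155 and 0.0743 in pairs 1 to 5, against a mean of -0.0481 between numbers. Alternatives were the reference, undetermined wells, the assay filter, eBayes with trend, the samples fitted, the block and each sample left out.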

Additional observations from a re-analysis of the deposited data

Results flagged for a closer look

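The log2 ratio of miR-7a over miR-7b in stellate sample 1, -0.825, stood apart from those of the other 4 stellate samples, which lay between -0.16 and 0.08. It was picked out because its gap to the nearest of them exceeded the critical value for a single far sample among 5. Of 18 groups of values examined in this way 1 was picked out, where chance gives 0.9. Without this sample the difference between the groups was -0.49, and the groups still did not overlap.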

How the results depend on the processing

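Of 309 alternative values, which include counts of the islet and neuroendocrine list, 272 stayed the same. For differences and ratios this means the direction and the side of the threshold, and for counts an equal or similar number. Some ratio settings could not move, since no member had an undetermined well or a Ct above the cap of 35. No alternative passed a member in stellate against non-stellate cells by limma. miR-375 was higher in all of its 33 alternatives (1.29 to 3.12, limma adjusted p 0.110 to 0.980) and miR-7b likewise (0.24 to 1.69). miR-7a turned negative with median centring (-0.14, also with the block), the global mean (-0.075), median centring without stellate sample 5 (-0.28) or pair 5 (-0.31), and without non-stellate samples 3 and 5 (-0.29, and -0.41 with median centring). Leaving out samples or pairs in turn gave 1.63 to 3.12 for miR-375, -0.22 to 0.69 for miR-7a and 0.36 to 1.25 for miR-7b. In tissue against sorted cells miR-375 passed with median centring (-4.20), the global mean (-3.88) and Y1 (-4.71). With median centring and without non-stellate samples 3 and 5, tissue gave -4.48 for miR-375, 0.094 for miR-7a and -0.052 for miR-7b. miR-7a lost its call with median centring (0.23) and the global mean (0.54) and reversed with Y1 (-0.28), as did miR-7b (0.085, 0.40 and -0.43). Leaving out samples gave -1.83 to -0.58, 2.98 to 3.41 and 2.80 to 3.23 for miR-375, miR-7a and miR-7b. With median centring tissue over stellate gave -5.13, 0.30 and -0.17 and tissue over non-stellate -3.27, 0.16 and 0.34. The list count of 6 higher became 3 with median centring, also without those samples, and 1 with Y1, and 1 was lower with no filter.

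With the replicate block, miR-375 was 2.25 ± 0.83 (SE) higher (limma adjusted p = 0.393), and with median centring added 1.86 ± 0.50 (adjusted p = 0.110). The pairing took the miR-7a over miR-7b ratio (-0.65) to an adjusted p of 0.188, and changed no other call. That ratio was -0.64 without non-stellate samples 3 and 5, and -0.72 to -0.49 with each sample left out. The ratios of miR-375 to miR-7a and miR-7b were 1.39 to 2.82 and 0.70 to 2.16, and were past the threshold of the leave-one-out settings only without stellate sample 5 (2.82 and 2.16), the only stellate sample below the non-stellate ones. The causes were not tested. Settings without stellate sample 5 or pair 5 with median centring, without non-stellate samples 3 and 5, and of the block with median centring were chosen after seeing the data. Single wells per assay and 2 tissue samples limit the precision.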
